A study of Mus musculus with 4 samples.

Results

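The genes of the vacuolar H+-ATPase (V-ATPase) and of the cathepsins were followed through the immune cells of a mouse melanoma. Members were all genes of the deposited table whose symbols begin with Atp6v0 or Atp6v1 and a subunit letter, together with Atp6ap1, Atp6ap2 and every Cts gene with a single further letter. From the 31 genes that matched, Atp6v0d2, Ctsk and Ctsw were left out. The remaining 28 of the 12584 genes in the table comprised 17 V-ATPase genes and 11 cathepsins. Another 11 protein-coding genes of that naming pattern in the GENCODE M21 annotation were not analysed here.

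The V-ATPase is a rotary proton pump that acidifies endosomes and lysosomes. Its V1 sector, on the cytosolic side, hydrolyses ATP, and its V0 sector, in the membrane, carries the protons. Cathepsins are the proteases of these acidic compartments, and most of them mature and work best at low pH. In macrophages and dendritic cells they degrade engulfed cells and proteins and prepare peptides for presentation on MHC molecules.

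Immune cells (CD45+) were sorted out of tumours of YUMM1.7-OVA RTT and sequenced singly. The tumours were made with a Braf V600E, Cdkn2a-/- mouse melanoma line that expresses ovalbumin, had become resistant to BRAF inhibition and was kept in dabrafenib. All tumours grew in Rag2-/- mice, which have no T or B cells of their own but keep their myeloid and NK cells. All mice received OT-1 CD8+ T cells, specific for ovalbumin, on day 7 (adoptive cell transfer, ACT), and tumours were taken on day 10, which was 72 h later. The question was how cancer-cell signals and drugs that act on them change the immune cells around the tumour. Each of 4 groups gave 1 library, a pool of 3 tumours. CTRL tumours carried an mCherry vector. IRF3/7 tumours overexpressed Irf3 and Irf7 in the cancer cells, which the CD45 sort was meant to remove. COX2i mice bore mCherry tumours and received celecoxib, an inhibitor of the prostaglandin-forming enzyme COX2. COX2i + 5-AZA mice received celecoxib and 5-azacitidine, an inhibitor of DNA methyltransferases. With 1 library per group there was no replicate, so no test between groups was possible and every difference is one between 2 libraries.

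Libraries held 6329 to 10032 cells and 26356819 to 78722763 unique molecular identifiers (UMIs), with medians of 3168 to 7502 UMIs per cell and the lowest values in IRF3/7. Irf7 stood at 4964 CPM (UMIs of a gene per 1000000 UMIs) over all sorted IRF3/7 cells and at 62.1 CPM over all CTRL cells. In COX2i it was at 86.2 CPM and in COX2i + 5-AZA, without overexpression, at 436 CPM. Irf3 was at 138 CPM in IRF3/7 and 41.6 CPM in CTRL. The study names Irf7 among genes of an interferon response. These values of sorted cells therefore do not settle the label of the library and say nothing of the cancer cells. No cell barcode was shared between libraries as a whole, and 4830 of 29259 droplet barcodes occurred in more than 1 library (10018 cells, 29.1%); the libraries came from 1 multiplexed experiment. Cell classes were those of the authors. In the CTRL library 2 small classes went against their labels. Its 93 Infl_Mono cells held macrophage markers at a summed 61554 CPM, against 13636 to 24891 CPM in the Infl_Mono cells of the other libraries. Its 65 Neutro cells held macrophage markers at 43745 CPM, above their neutrophil markers at 25416 CPM, whereas the Neutro cells of COX2i + 5-AZA held them at 8654 and 91330 CPM. The class labelled Myofibrobl consisted of non-immune cells that passed the CD45 sort, with stromal and melanocytic markers at a summed 9001 to 22399 CPM.

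Values are UMIs summed over the named cells of a library, as CPM of those cells. Ranges in parentheses are exact 95% intervals for the error of counting; how far tumours of a group differ is not in them. A sum over several classes moves both with the level in each class and with the numbers of cells in the classes. Levels are compared between cells and libraries, not between genes, because each gene was read by its own probes.

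Promoter sequence was available from RefSeq (GRCm38.p6) for 20 of the 28 genes, as 250 bases before to 50 bases after each start site. The E-box CACGTG, the core of the sites bound by the MiT/TFE factors that control lysosomal genes, was found in a promoter of 8 of these 20 genes, against 8.09% of the 27025 genes with a promoter (7.15% of all 32851 promoters of this length). Its 8-letter form TCACGTGA, which contains the E-box, was found in 5 of them (Atp6v0d1, Atp6v0e, Atp6v1a, Ctsa and Ctsd) against 1.12% of genes (0.974% of promoters). A pair of GAAA blocks 2 bases apart, as in an interferon-stimulated response element, was found for Atp6v1d, Ctso and Ctss (3.99% of genes, 3.44% of promoters). TTCNNNGAA, letters like those of a STAT site, was found for Ctsc alone among the 20 (9.55% of genes, 8.3% of promoters). Both strands were searched, and a match is a description of letters, not of binding. Shown here are 30-base windows of 6 genes whose levels are described below, in the direction of transcription, with the matched letters in capitals. The first 2 hold the 8-letter form and the next 2 the E-box alone.
Ctsd (chr7:142387908-142387937, minus strand): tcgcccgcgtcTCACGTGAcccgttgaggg
Atp6v1a (chr16:44139373-44139402, minus strand): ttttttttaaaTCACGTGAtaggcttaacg
Ctsf (chr19:4855074-4855103, plus strand): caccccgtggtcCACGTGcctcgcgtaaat
Ctsl (chr13:64370739-64370768, minus strand): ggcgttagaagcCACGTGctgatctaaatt
Ctss (chr3:95526755-95526784, plus strand): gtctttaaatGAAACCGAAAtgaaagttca
Ctsc (chr7:88277839-88277868, plus strand): agctttggcgTTCCTTGAAaggcagaggtc
These windows were chosen with the levels known. In IRF3/7 relative to CTRL, the 8 genes with an E-box had log2 ratios from -5.43 (Ctsf, on few UMIs) to -0.19 (Atp6v0e), with Atp6v1a at -0.74, beside a median of -0.55 over all genes. The 3 genes with the GAAA pair were at 0.90 (Ctss), -0.04 (Atp6v1d) and -0.58 (Ctso), and Ctsc was at 0.51. Of all members, with or without these letters, only 3 of 17 V-ATPase genes and 5 of 11 cathepsins lay above 0. A link between the letters and the levels was not tested.

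Over monocytes and macrophages together, the 17 V-ATPase genes took 0.620% of all UMIs in CTRL, 0.493% in IRF3/7, 0.525% in COX2i and 0.558% in COX2i + 5-AZA. CTRL was the highest of the 4. There 54107 of the 338999 V-ATPase UMIs came from the 380 cells of Ctsk_Macro, a class described below, against 22106 of 328040 in COX2i. The 11 cathepsins took 1.95% in CTRL, 1.96% in IRF3/7, 1.703% in COX2i and 2.14% in COX2i + 5-AZA, so that CTRL and IRF3/7 had nearly the same total although Ctsd, Ctsl and Ctss among others differed between them. These sums covered 7614, 5035, 7378 and 8801 cells, and the largest class differed between libraries: TAM_C1q (3199 cells) in CTRL, Infl_Mono (4335) in IRF3/7, TAM_cycling (3164) in COX2i and Monocyte_1 (3640) in COX2i + 5-AZA. For the 25 members with at least 500 UMIs in each of these sums, a counting interval reached at most 7.17% of the level to either side. Atp6v1g2, Ctse and Ctsf were rarer.

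**Figure D1:**
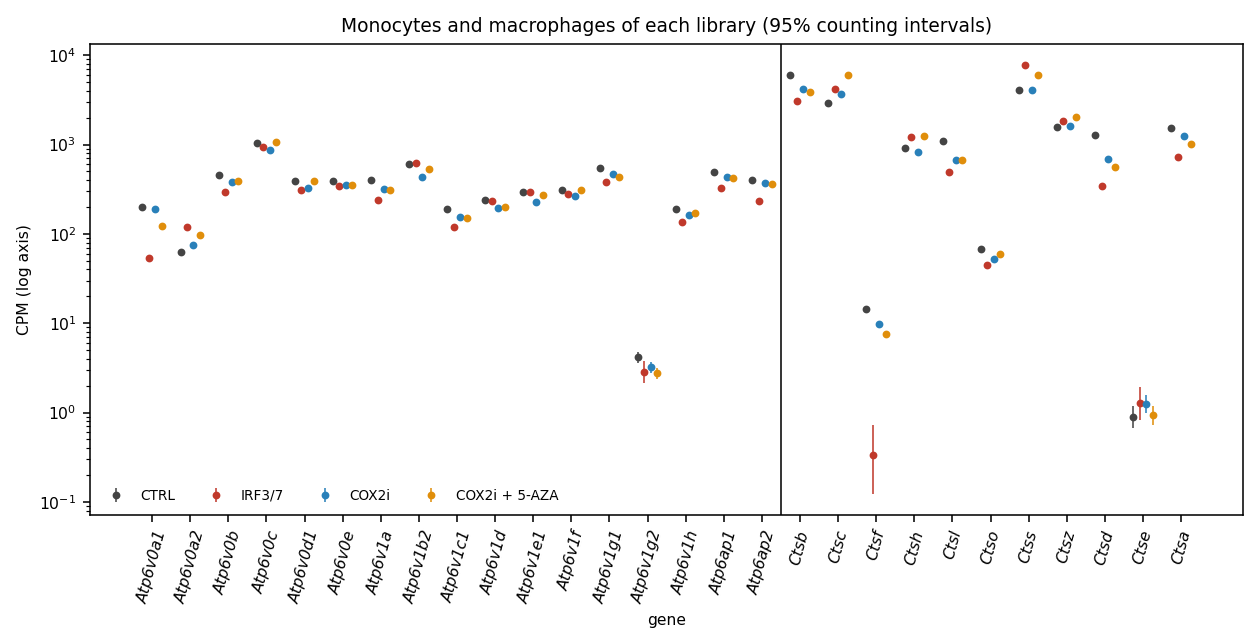
Levels of the 28 genes in monocytes and macrophages of each library, in CPM on a log axis, with exact 95% intervals for counting error; each point is 1 library (1 per group). Ctsd, Ctsf, Ctsl and Atp6v0a1 stood lowest in IRF3/7, and Ctss and Atp6v0a2 highest there.

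Among cell classes the V-ATPase genes had a marked peak in Ctsk_Macro, a macrophage class with the osteoclast-type protease Ctsk as its leading gene. Classes were defined by the authors from the same cells and genes, and the published markers of this class include Atp6v1g1, Atp6v0b, Atp6v1b2 and Atp6v1a, so differences between classes are given as a description. Of the 28 genes, 16 had their highest mean level in Ctsk_Macro (13 V-ATPase genes and the cathepsins Ctsa, Ctso and Ctsf), against 10.4% of the 11474 genes with at least 200 UMIs. V-ATPase genes took 1.42% of the UMIs of this class in CTRL (380 cells) and 1.36% in COX2i (157 cells), and between 0.245% and 0.627% in every other class and library with at least 50 cells. IRF3/7 and COX2i + 5-AZA had 13 and 37 such cells and are not used for this class.

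Relative to their own median class, Atp6v1b2, Atp6v1a, Atp6v1g1 and Atp6v1c1 stood out most among the V-ATPase genes in this class. Atp6v1b2, the B subunit of the ATP-hydrolysing ring (chromosome 8, 69088646 to 69113711, plus strand, GRCm38), stood in Ctsk_Macro at 2813 CPM (2760 to 2867) in CTRL and 2616 CPM (2538 to 2696) in COX2i. Across the other classes it ranged from 126 CPM in the non-immune class of IRF3/7 to 700 CPM in Infl_Mono of COX2i + 5-AZA, and the Ctsk_Macro mean was 6.63 times that of the median class. Atp6v1a, the A subunit that holds the catalytic site, reached 1103 CPM (1070 to 1137) in CTRL and 900 CPM (855 to 947) in COX2i, 4.10 times the median class. Its lowest mean level, 110 CPM, was in CCR7+ DC. Atp6v1g1, a subunit of the peripheral stalk, stood at 1665 CPM in CTRL and 1585 CPM in COX2i, against 188 to 503 CPM elsewhere, lowest on average in NK cells (222 CPM).

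The other V1 genes followed the same order with smaller distances. Atp6v1c1, a subunit that joins V1 to V0, was at 516 and 451 CPM in Ctsk_Macro of CTRL and COX2i. Atp6v1d, the central shaft, was at 616 and 611 CPM, Atp6v1e1 at 671 and 527 CPM, and Atp6v1f at 551 and 572 CPM. Atp6v1h, a regulatory subunit, was at 418 and 325 CPM. Next to Ctsk_Macro stood other macrophage, TAM or monocyte classes for all of these, while the lowest means were in CCR7+ DC for Atp6v1h (56.1 CPM) and Atp6v1d (133 CPM), in cDC1 for Atp6v1e1 (128 CPM), in Monocyte_3 for Atp6v1c1 (65.0 CPM) and in the non-immune class for Atp6v1f (208 CPM). Atp6v1g2 was the exception. It had few UMIs anywhere and its highest mean, 5.73 CPM, was in the non-immune class, and its lowest, 1.01 CPM, in Macro.

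In the V0 sector, the proton-binding ring subunits Atp6v0c and Atp6v0b and the small subunit Atp6v0e were also highest in Ctsk_Macro. Atp6v0c was at 1820 CPM (1778 to 1864) in CTRL and 1986 CPM (1919 to 2056) in COX2i, and Atp6v0b at 1003 and 1084 CPM, with the lowest means in cDC1 (258 CPM) and NK cells (153 CPM). Atp6v0e had a mean of 978 CPM in Ctsk_Macro and 137 CPM in the non-immune class. Atp6v0d1, the widely used d subunit, was not. Its highest mean, 426 CPM, was in TAM_C1q, its lowest, 119 CPM, in the non-immune class, and in Ctsk_Macro it was at 343 and 346 CPM. The accessory proteins Atp6ap1 and Atp6ap2 were highest in Ctsk_Macro with means of 689 and 833 CPM, and lowest in CCR7+ DC (147 CPM) and NK cells (115 CPM).

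The a subunits, which steer the pump to its compartment, had patterns of their own. Atp6v0a1 (chromosome 11, 101009452 to 101063719, plus strand, GRCm38) was highest in TAM_C1q, at 251 CPM (244 to 257) in CTRL, 262 CPM (254 to 270) in COX2i and 216 CPM (208 to 224) in COX2i + 5-AZA. In Ctsk_Macro it stood at 53.2 and 60.2 CPM, below TAM_C1q, TAM_Spp1 and TAM_cycling of those libraries, and its lowest mean was in NK cells, 16.4 CPM. Atp6v0a2 (chromosome 5, 124628576 to 124724455, plus strand) was highest in cDC1, the dendritic cells that cross-present antigen to CD8+ T cells, at 346 CPM (302 to 396) in COX2i and 352 CPM (299 to 411) in COX2i + 5-AZA. That was 4.42 times its median class, and its next highest mean, in cDC2, was 141 CPM, with the lowest in CCR7+ DC, 42.7 CPM. The intervals of these 2 libraries, the only ones with at least 50 cDC1, overlapped.

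**Figure D2:**
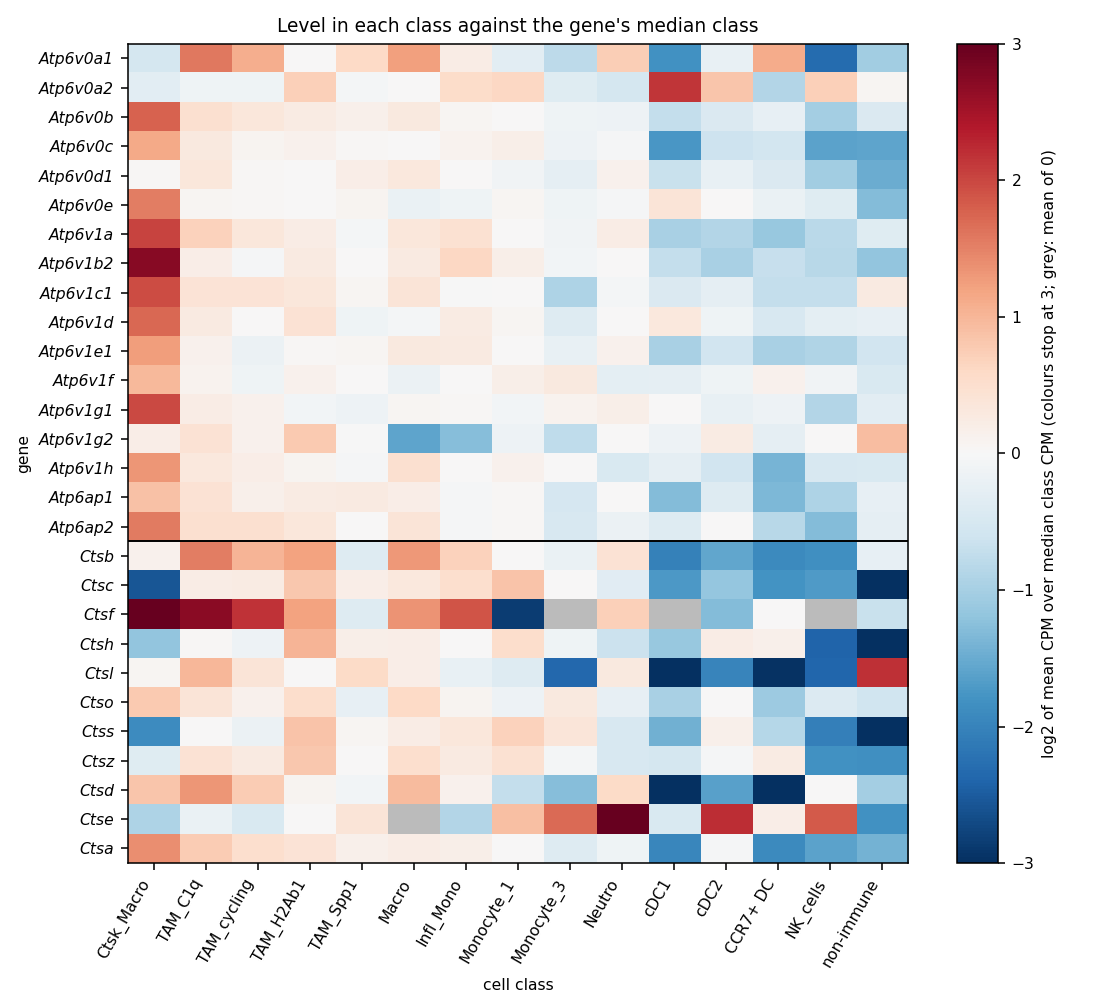
Mean level of each gene (rows) in each cell class (columns), as the log2 ratio to the gene's median class; means are over libraries with at least 50 cells of the class. The Ctsk_Macro column is highest for 13 of 17 V-ATPase genes, and the median cathepsin is low in NK cells, cDC1 and the non-immune class; colours stop at 3 and grey marks a mean of 0.

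Cathepsins were spread over more classes. Relative to the median class, the median cathepsin was highest in TAM_H2Ab1 (log2 0.81) and TAM_C1q (0.44) and lowest in NK cells (-1.82) and cDC1 (-1.71). For V-ATPase genes the corresponding medians ran from 1.33 in Ctsk_Macro to -0.84 in NK cells. Cathepsins took up to 2.70% of UMIs in TAM_H2Ab1 of COX2i + 5-AZA and 2.35% in TAM_C1q of CTRL, but 0.350% in NK cells of COX2i.

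Ctsb, a cysteine protease of lysosomes, and Ctsd, the main lysosomal aspartic protease (chromosome 7, 142375911 to 142388038, minus strand), belonged to TAM_C1q, and both are among the published markers of that class. Ctsb reached 8140 CPM (8103 to 8176) there in CTRL, 5847 CPM in COX2i and 6386 CPM in COX2i + 5-AZA. Ctsd reached 1662 CPM (1645 to 1678) in CTRL, 1007 CPM in COX2i and 971 CPM in COX2i + 5-AZA, and it was lowest in cDC1, at 46.4 to 50.8 CPM, as was Ctsb with a mean of 576 CPM. Both genes were thus highest in the CTRL cells of their own class.

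Ctss, which trims the invariant chain of MHC class II, Ctsh, an aminopeptidase, and Ctsz, a carboxypeptidase, were highest in TAM_H2Ab1, whose published markers include Ctss and Ctsz. Ctss was at 9712 CPM (9576 to 9848) in TAM_H2Ab1 of IRF3/7 and 7449 CPM (7368 to 7531) in that of COX2i + 5-AZA. Its lowest mean was in the non-immune class, 299 CPM. Ctsh had means of 2021 CPM in TAM_H2Ab1 and 123 CPM in the non-immune class, and Ctsz of 2508 and 400 CPM. Ctsc, which activates granule serine proteases, was highest in Monocyte_1, at 4351 CPM (4199 to 4508) in IRF3/7, 6164 CPM (6046 to 6285) in COX2i and 7597 CPM (7560 to 7634) in COX2i + 5-AZA. Monocyte_1 and TAM_H2Ab1 differed little in Ctsc, with means of 6038 and 5821 CPM, while the non-immune class was at 250 CPM.

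Ctsa and Ctso, a papain-like protease, were highest in Ctsk_Macro, with means of 2261 and 90.0 CPM, and lowest in cDC1 (220 CPM) and CCR7+ DC (24.5 CPM).

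Ctsl and Ctsf each had 1 outstanding class. Ctsl, a cysteine protease that cells also secrete (chromosome 13, 64359337 to 64370890, minus strand), was highest in the non-immune class, at 2196 CPM (2166 to 2226) in CTRL, 3903 CPM (3846 to 3962) in IRF3/7, 1991 CPM (1965 to 2017) in COX2i and 2072 CPM (2019 to 2126) in COX2i + 5-AZA. This mean was 4.57 times that of the median class, the lowest being cDC1 (60.9 CPM), and macrophage markers in these cells were at a median of 0.696% to 8.79% of their level in macrophages. Ctsf was a gene of few UMIs, at 40.6 CPM (34.5 to 47.6) in Ctsk_Macro of CTRL and 32.6 CPM (24.4 to 42.6) in that of COX2i, 15.2 times its median class. No UMI was seen in NK cells, cDC1 or Monocyte_3, in the libraries with at least 50 cells of the class. Ctse, the second aspartic protease, was rarest. Its highest mean, 8.79 CPM in Neutro and 8.09 times the median class, rested on 2 UMIs in CTRL, in the cells that went against their label, and 8 in COX2i + 5-AZA. In the latter alone it was at 11.1 CPM (4.79 to 21.9), which overlapped cDC2 of that library at 6.10 CPM (2.63 to 12.02).

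In IRF3/7 relative to CTRL, 5 of the 28 genes were lower by more than 2-fold over monocytes and macrophages (Ctsf, Ctsd, Atp6v0a1, Ctsl and Ctsa), against 32.2% of the 11793 genes with at least 20 UMIs. None was higher by 2-fold, against 9.16% of all genes. The median log2 ratio was -0.49 for V-ATPase genes and -0.58 for cathepsins, beside -0.55 for all genes, so that over these cells both lists lay close to the typical gene. In Infl_Mono alone, where the CTRL cells went against their label, the medians were -0.11 and -0.45, beside -0.21 for all genes. In cDC2 they were 0.0017 and 0.17, beside -0.29, and in the non-immune class -0.35 and -0.15, beside -0.29. With size factors (median of ratios) instead of UMI totals, scaling shifted every gene up by 0.52 and gave 4 genes higher (Atp6v0a2, Ctss, Ctse and Ctsc), against 15.6% of all genes under that scaling, and 3 lower (Ctsf, Ctsd and Atp6v0a1), against 19.6%. Without Infl_Mono, Ctss, Ctsh and Atp6v0a2 were higher by 2-fold, against 7.3% of genes. With only cells of more than 2000 genes, Atp6v0a2 was, against 8.67%. At a limit of 1.5-fold on UMI totals, 2 members were higher (Ctss and Atp6v0a2), against 13.6% of genes, and 11 lower, against 48.4%. Changes are therefore best read relative to the median of all genes.

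Ctsd was at 1270 CPM (1261 to 1280) in CTRL, 343 CPM (334 to 352) in IRF3/7, 680 CPM (674 to 687) in COX2i and 561 CPM (556 to 567) in COX2i + 5-AZA. All 3 other libraries lay below CTRL, with log2 ratios of -1.89 (-1.93 to -1.85), -0.90 (-0.92 to -0.88) and -1.18 (-1.20 to -1.16). Within single classes CTRL was the highest wherever it had at least 50 cells among the classes named here. In Infl_Mono, the only monocyte or macrophage class with 50 cells in both CTRL and IRF3/7, Ctsd was at 1086 and 319 CPM, with the caveat on the CTRL cells given above. In TAM_cycling it was at 1272 CPM in CTRL, 622 CPM in COX2i and 564 CPM in COX2i + 5-AZA. In TAM_Spp1 the double treatment stood close to CTRL, with 518 CPM in CTRL, 370 CPM in COX2i and 495 CPM in COX2i + 5-AZA. The order of the other libraries was not the same in each class. In Monocyte_1, with 44 cells in CTRL, Ctsd was at 340 CPM (299 to 386) in IRF3/7, 212 CPM (190 to 235) in COX2i and 339 CPM (331 to 347) in COX2i + 5-AZA, so that COX2i was the lowest there.

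Ctsf (chromosome 19, 4855130 to 4860918, plus strand), a papain-like protease, was at 14.5 CPM (13.5 to 15.5) in CTRL, 9.75 CPM (8.995 to 10.6) in COX2i and 7.60 CPM (6.96 to 8.28) in COX2i + 5-AZA. In IRF3/7 only 6 UMIs were counted, 0.336 CPM (0.123 to 0.731), a log2 ratio to CTRL of -5.43 (-6.88 to -4.30). TAM_C1q, TAM_cycling and Ctsk_Macro, in which Ctsf was highest by CPM or UMIs, had 7, 20 and 13 cells in IRF3/7. Within single classes the picture was mixed and rested on few UMIs. In Infl_Mono it was at 26.8 CPM (14.3 to 45.9, 13 UMIs) in CTRL and 0.136 CPM (0.0164 to 0.491, 2 UMIs) in IRF3/7, and in TAM_H2Ab1 at 10.1 CPM (7.36 to 13.6) in COX2i + 5-AZA and 0.989 CPM (0.120 to 3.57, 2 UMIs) in IRF3/7. These CTRL Infl_Mono cells are those that went against their label. In cDC2 and the non-immune class, with 1 to 13 UMIs per library, the intervals of all 4 libraries overlapped. Over monocytes and macrophages its intervals did not overlap between IRF3/7 and any other library.

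Ctsl was at 1105 CPM (1097 to 1114) in CTRL, 498 CPM (488 to 508) in IRF3/7, 663 CPM (657 to 670) in COX2i and 663 CPM (656 to 669) in COX2i + 5-AZA. The 2 celecoxib libraries could not be told apart, at log2 -0.00 (-0.02 to 0.02). Over all cells, non-immune cells included, the log2 ratio of Ctsl in IRF3/7 to CTRL was -0.26 in place of -1.15, and in Infl_Mono alone, with the same caveat on the CTRL cells, it was -0.45. Ctsa, a serine carboxypeptidase that also protects lysosomal neuraminidase (chromosome 2, 164832873 to 164841032, plus strand), was at 1514 CPM in CTRL, 733 CPM in IRF3/7, 1233 CPM in COX2i and 1024 CPM in COX2i + 5-AZA. Its log2 ratio in IRF3/7 was -1.05 (-1.07 to -1.02), just past the 2-fold limit, and Ctsb was just within it at -0.95 (-0.96 to -0.93), with 5965 CPM in CTRL, 3097 CPM in IRF3/7, 4138 CPM in COX2i and 3828 CPM in COX2i + 5-AZA.

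Other cathepsins had higher levels in IRF3/7 than in CTRL, within 2-fold. Ctss (chromosome 3, 95526786 to 95556403, plus strand) was at 4120 CPM (4103 to 4137) in CTRL, 7665 CPM (7625 to 7706) in IRF3/7, 4117 CPM (4101 to 4133) in COX2i and 5997 CPM (5979 to 6015) in COX2i + 5-AZA. CTRL and COX2i overlapped and the other 2 libraries lay above them. The log2 ratios to CTRL were 0.90 (0.89 to 0.91) in IRF3/7, -0.00 (-0.01 to 0.01) in COX2i and 0.54 (0.53 to 0.55) in COX2i + 5-AZA. In Infl_Mono, Ctss was at 5520 CPM in the CTRL cells that went against their label, 7363 CPM in IRF3/7, 5379 CPM in COX2i and 5673 CPM in COX2i + 5-AZA.

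Ctsc (chromosome 7, 88278085 to 88310888, plus strand) was at 2945 CPM (2931 to 2960) in CTRL, 4192 CPM (4162 to 4222) in IRF3/7, 3687 CPM (3672 to 3702) in COX2i and 5945 CPM (5927 to 5964) in COX2i + 5-AZA. No interval overlapped another, and COX2i + 5-AZA was the highest. Its log2 ratio to CTRL, 1.01 (1.01 to 1.02), was the only rise of a member past 2-fold in that comparison, and it was 0.93 without Ctsk_Macro and 0.61 with the class mix of CTRL. The same order was found within TAM_C1q, at 3192 CPM in CTRL, 3726 CPM in COX2i and 4657 CPM in COX2i + 5-AZA, and within TAM_cycling, at 3013, 3627 and 5211 CPM. Ctsh was at 912 CPM in CTRL, 1212 CPM in IRF3/7, 827 CPM in COX2i and 1260 CPM in COX2i + 5-AZA, and Ctsz at 1578, 1826, 1618 and 2044 CPM in the same order. Ctso was at 67.2, 44.9, 52.7 and 59.2 CPM. Ctse had 49, 23, 78 and 64 UMIs, and its log2 ratio in IRF3/7 was 0.52 (-0.26 to 1.27). For Ctsh and Ctsz the sign in IRF3/7 turned when only Infl_Mono was compared (log2 -0.03 and -0.04, both with intervals spanning 0, in place of 0.41 and 0.21), a comparison with the CTRL cells that carried macrophage markers.

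In COX2i relative to CTRL none of the 28 genes passed 2-fold in either direction, against 1.93% of 11905 genes higher and 4.7% lower. At 1.5-fold none was higher, against 6.83%, and Ctsd and Ctsl were lower, against 10.6%. Of the V-ATPase genes 16 of 17 lay below CTRL, between log2 -0.46 (Atp6v1b2) and -0.04 (Atp6v0a1), and only Atp6v0a2 above it (0.29). The median was -0.23 for V-ATPase genes and -0.30 for cathepsins, while the median of all genes was 0.01. Without Ctsk_Macro, which made up 380 CTRL and 157 COX2i cells, these medians were -0.17 and -0.23. Among cathepsins the lowest were Ctsd, Ctsl and Ctsf (-0.57) and the highest Ctse (0.48, -0.06 to 1.02) and Ctsc (0.32), followed by Ctsz (0.04).

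COX2i + 5-AZA relative to CTRL gave 1 gene higher by 2-fold (Ctsc; 5.65% of all 12001 genes) and 1 lower (Ctsd; 11.3%). With the class mix of CTRL held fixed neither passed 2-fold, with Ctsc at 0.61 and Ctsd at -0.72. Medians were -0.17 for V-ATPase genes and -0.18 for cathepsins, beside -0.16 for all genes. Next to Ctsc stood Atp6v0a2 (0.65) and Ctss (0.54), and next to Ctsd stood Ctsf (-0.93) and Ctsl (-0.74). At 1.5-fold 2 members were higher (Ctsc and Atp6v0a2), against 9.09% of genes, and 6 lower, against 20.8%. Relative to COX2i, which lacks the added 5-azacitidine, none of the members passed 2-fold, against 6.16% of genes higher and 9.77% lower. At 1.5-fold Ctsc and Ctsh were higher, against 9.99%, and Atp6v0a1 lower, against 19.3%. The highest members there were Ctsc at log2 0.69 (0.68 to 0.70), Ctsh at 0.61 (0.59 to 0.62) and Ctss at 0.54 (0.54 to 0.55), and the lowest were Atp6v0a1 at -0.66 (-0.70 to -0.62), Ctse at -0.42 (-0.92 to 0.08) and Ctsf at -0.36 (-0.53 to -0.19). The medians of 0.03 (V-ATPase genes) and -0.0017 (cathepsins) stood above the -0.19 of all genes. These comparisons share the CTRL or the COX2i library, so their values are not independent of each other.

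**Figure D3:**
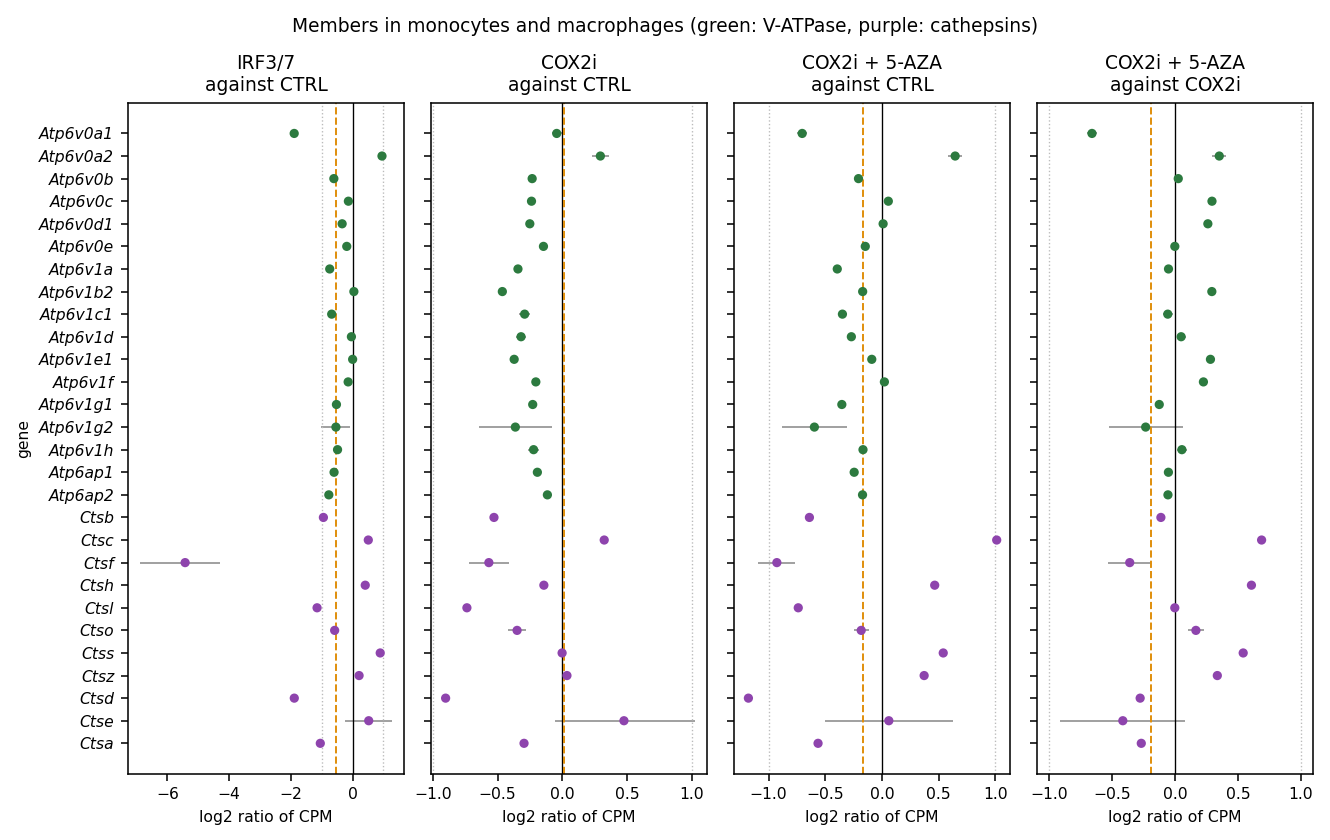
Log2 ratio of each gene between libraries in monocytes and macrophages, in 4 comparisons, with exact 95% intervals for counting error. Dotted lines mark 2-fold, the dashed line marks the median of all genes, and the axes differ in range; 5 genes lie left of the lower dotted line in IRF3/7 against CTRL, and Ctsc and Ctsd lie past the dotted lines in COX2i + 5-AZA against CTRL.

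Most V-ATPase genes moved by less than 2-fold in each comparison. In IRF3/7 relative to CTRL, leaving out Atp6v0a1 and Atp6v0a2, they ranged from -0.77 (Atp6ap2, 402 CPM in CTRL and 236 CPM in IRF3/7) to 0.04 (Atp6v1b2, 599 and 617 CPM). Atp6v1a lay between them at -0.74, with 405 and 242 CPM. Atp6v1e1 and Atp6v1d were at 0.00 (-0.04 to 0.05) and -0.04 (-0.09 to 0.01), which is above the median gene of that comparison.

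The a subunits had ratios of opposite sign. Atp6v0a1 was at 197 CPM (194 to 201) in CTRL, 53.1 CPM (49.8 to 56.6) in IRF3/7, 191 CPM (188 to 195) in COX2i and 121 CPM (119 to 124) in COX2i + 5-AZA. Atp6v0a2 was at 61.9 CPM (59.8 to 64.0) in CTRL, 120 CPM (115 to 125) in IRF3/7, 75.9 CPM (73.8 to 78.1) in COX2i and 96.9 CPM (94.6 to 99.3) in COX2i + 5-AZA. The libraries stood in the reverse order for the second gene, although the intervals of CTRL and COX2i overlapped for the first. With the class mix held fixed, which for IRF3/7 means Infl_Mono alone, the log2 ratios to CTRL were -1.39 for Atp6v0a1 and 0.19 for Atp6v0a2, in place of -1.89 and 0.95. The CTRL side of these ratios is the Infl_Mono cells with macrophage markers. Of the UMIs of both, Atp6v0a1 made up 76.1% (75.4 to 76.8) in CTRL, 71.6% (70.9 to 72.3) in COX2i, 55.5% (54.7 to 56.3) in COX2i + 5-AZA and 30.7% (29.1 to 32.4) in IRF3/7. This share is independent of scaling. It depends on the probes of each gene and is compared only between cells.

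Part of the difference in this share was seen within classes. In TAM_C1q Atp6v0a1 made up 79.9% in CTRL, 77.3% in COX2i and 74.1% in COX2i + 5-AZA, and in TAM_cycling 78.2%, 72.2% and 59.8%. In Infl_Mono it made up 56.5% (47.0 to 65.7) in CTRL, 43.8% (35.2 to 52.8) in COX2i, 46.0% (42.6 to 49.3) in COX2i + 5-AZA and 30.3% (28.5 to 32.2) in IRF3/7. Macrophage markers in these Infl_Mono cells were at a median of 97.6%, 66.1%, 25.5% and 31.3% of the macrophage level, in the same order, and their part in the share was not tested. IRF3/7 was the lowest in each of the monocyte, TAM_H2Ab1 and cDC2 classes in which it could be read, by its point estimate. In cDC2, Atp6v0a1 made up 48.9% (44.7 to 53.0) in CTRL, 47.6% (43.8 to 51.3) in COX2i, 22.0% (17.1 to 27.6) in COX2i + 5-AZA and 15.5% (11.6 to 20.0) in IRF3/7. CTRL and COX2i overlapped, as did the other 2 in part, and the 2 pairs were clear of each other. In these cDC2 the level of Atp6v0a1 was 100 CPM in CTRL, 99.7 CPM in COX2i, 43.5 CPM in COX2i + 5-AZA and 35.8 CPM in IRF3/7, and macrophage markers were at a median of 6.52%, 8.08%, 9.64% and 3.04% of the macrophage level. The part of macrophage RNA in this difference was not tested.

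**Figure D4:**
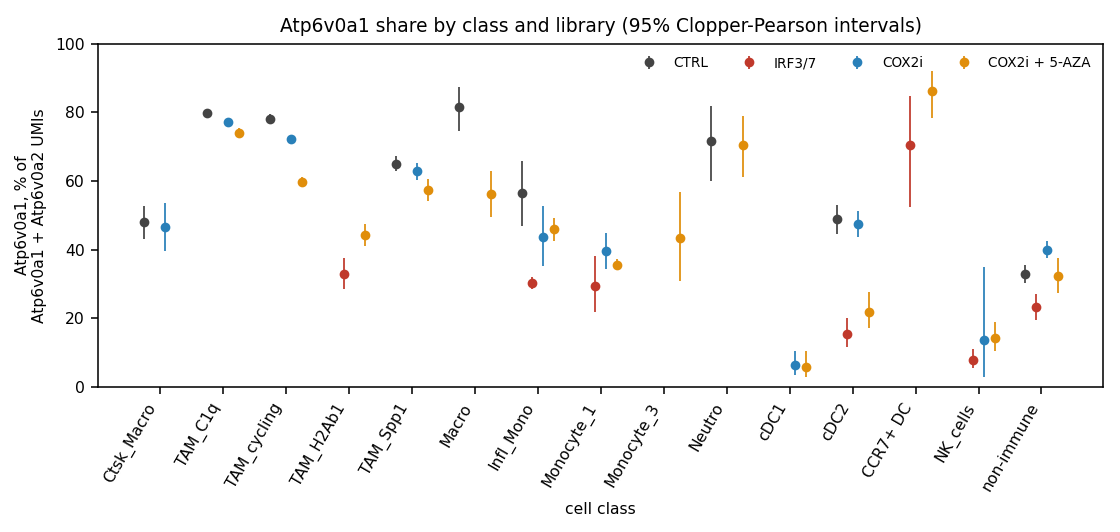
Share of Atp6v0a1 in the UMIs of Atp6v0a1 and Atp6v0a2 together (percent), by cell class and library, with exact 95% intervals for counting error. TAM_C1q lies at 74.1% to 79.9%, Infl_Mono and Monocyte_1 of IRF3/7 at 30.3% and 29.5%, and cDC1 and NK cells below 15%.

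Macrophages were compared with monocytes inside each library. The median log2 ratio of all genes was 0.25 in CTRL, 0.30 in IRF3/7, 0.26 in COX2i and 0.25 in COX2i + 5-AZA. In CTRL, with 7475 macrophages and 139 monocytes, none of the genes passed 2-fold, against 12.6% of genes higher and 7.05% lower. Atp6v0a1 (log2 0.78), Ctsl (0.69) and Ctsd (0.60) were the highest in macrophages, and Atp6v0a2 (-0.63), Ctss (-0.53) and Ctsc (-0.42) the lowest. Most of these monocytes were the Infl_Mono cells with macrophage markers, and without them 46 monocytes remained. The count of members past 2-fold then went from 0 to 4 of 27 measured, against 17.5% of genes, with none lower, against 9.84%. These were Ctsd (2.22, on 57 monocyte UMIs), Ctsb (1.53, on 431), Atp6v0a1 (1.46, on 15) and Atp6v1a (1.05, on 41), and the cathepsin median went from -0.06 to 0.31, with Ctsf at its bound because no monocyte UMI was counted.

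In IRF3/7, with 439 macrophages and 4596 monocytes, Atp6v1g2 (1.28, on 14 and 37 UMIs) and Ctsh (1.02, 0.97 to 1.06) were higher in macrophages by 2-fold, against 20.2% of genes, and none was lower, against 7.26%. Ctsh was at 2158 CPM in macrophages and 1065 CPM in monocytes, and Ctsb came next at 0.86. Without Infl_Mono, Ctsh was at 0.52, within 2-fold, and Atp6v1g2 had fewer than the minimum of 20 UMIs. The lowest members were Atp6v1e1 and Atp6v0d1, each at -0.15, and Atp6v0c at -0.07.

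In the 2 celecoxib libraries Ctsf, Ctsd, Atp6v0a1 and Ctsl were higher in macrophages by 2-fold. The number of members past 2-fold was near the share of all genes, 14.6% in each. In COX2i (6820 macrophages, 558 monocytes) the ratios were those of Ctsf (2.24, on 5 monocyte UMIs), Ctsd (1.46), Atp6v0a1 (1.22) and Ctsl (1.03), against 14.6% of genes, and Ctse was lower (-1.55, on 70 and 8 UMIs), against 6.22%. In COX2i + 5-AZA (4117 and 4684 cells) the genes past 2-fold were Ctsf (3.76), Atp6v0a1 (1.14), Ctsd (1.05), Ctsl (1.01) and Ctsb (1.00), against 14.6% of genes, and none was lower, against 4.08%. Ctsd was at 697 and 253 CPM in macrophages and monocytes of COX2i and at 696 and 336 CPM in those of COX2i + 5-AZA. Ctss and Ctsc were lower in macrophages in both, with Ctss at -0.70 and -0.40 and Ctsc at -0.65 and -0.52. Atp6v0a2 was at -0.72 and -0.40, and Ctse in COX2i + 5-AZA at -0.92. Ctss in IRF3/7 was at 0.31 (0.29 to 0.33), close to the median of all genes there (0.30), and at 0.08 without Infl_Mono. Without Infl_Mono, Ctsl in COX2i + 5-AZA was at 0.96, within 2-fold, and Ctsb in COX2i went from 0.91 to 1.24, past it. Scaling by size factors lowered every such ratio by 0.24 to 0.36 and ended most of these calls. In COX2i, Ctsf (2.00) and Ctsd (1.22) were then still higher by 2-fold, against 10.4% of genes, and Ctse lower (-1.79), against 8.72%. In COX2i + 5-AZA only Ctsf (3.50) was higher, against 10.7%, and Ctse was lower (-1.18), against 6.01%. None passed in IRF3/7, against 12.3% of genes higher and 12.2% lower, or in CTRL, against 8.41% and 9.39%.

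**Figure D5:**
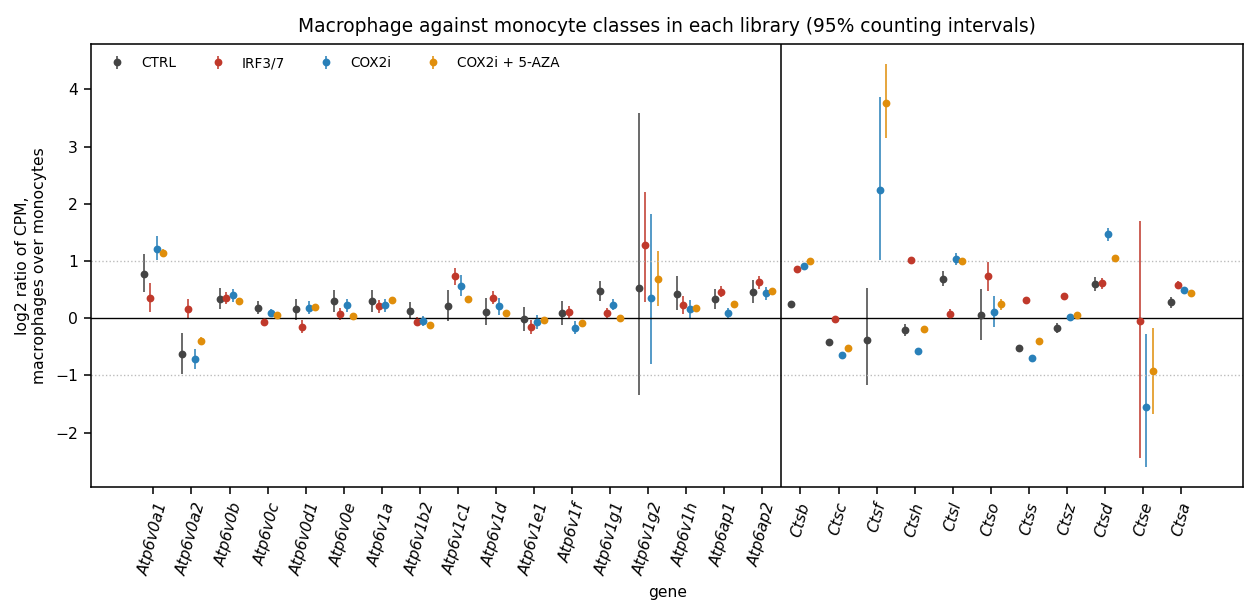
Log2 ratio of macrophages to monocytes within each library for the 28 genes, with exact 95% intervals for counting error; values on fewer than 20 UMIs or with no bound are left out. Ctsd, Atp6v0a1 and Ctsl lie above 0 in all 4 libraries, although the interval of Ctsl reaches 0 in IRF3/7. Medians of all genes were 0.25 to 0.30. In IRF3/7 Ctsl (0.07) lies below that median and Atp6v0a1 (0.36) near it, and without Infl_Mono Ctsl is at -0.014 there.

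Outside monocytes and macrophages, the median member stood at a larger part of its macrophage level than the median macrophage marker did. The markers were listed as genes of macrophages, so this direction was largely fixed in advance. No such value was computed for all genes, so members are not set against ordinary genes here. In NK cells the median member was at 40.1% of the macrophage level in IRF3/7, 47.4% in COX2i and 48.1% in COX2i + 5-AZA, with macrophage markers at medians of 3.31%, 8.49% and 16.2%. In the non-immune class the median member was at 35.2% to 46.1%. Atp6v1f stood in NK cells at 89.8% to 97.1% of the macrophage level and Ctsd at 64.1% to 102% (499 CPM in IRF3/7, 447 CPM in COX2i and 508 CPM in COX2i + 5-AZA). Atp6v0a2 was at 100.5% to 153% there, with 179 CPM (161 to 198) in IRF3/7. In contrast, Ctsb was at 10.9% to 20.2%, Ctss at 10.7% to 28.4% and Ctsc at 17.0% to 31.3%, while the 11 macrophage markers ranged from 1.98% to 27.4% in the same cells. For these cathepsins the share that came from macrophage RNA was not tested. In CCR7+ DC, mature dendritic cells that migrate, Atp6v0a1 was above macrophages, at 236 CPM (191 to 289) in COX2i + 5-AZA and 115 CPM (74.0 to 172) in IRF3/7.

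Other lysosomal genes were read from lists over monocytes and macrophages, to be set against the shares of all genes given above for each comparison. In IRF3/7 relative to CTRL, 2 of 27 lysosomal hydrolases and co-factors were higher by 2-fold and 10 lower, with a median of -0.62. Of all genes 9.16% were higher and 32.2% lower, with a median of -0.55, which is near the values of the list. Among them Arsb, arylsulfatase B, was at -3.14. Of 17 lysosomal membrane proteins 1 was higher and 3 lower (median -0.46), led by the tetraspanin Cd63 at -3.05 and the sialic acid transporter Slc17a5 at -1.78. Of 9 genes of lysosomal sorting none was higher and 2 lower, Igf2r, a mannose 6-phosphate receptor, at -2.09 and the Golgi adaptor Gga2 at -1.78.

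Regulators and partners of the members gave a mixed picture in the same comparison. Of 6 measured cathepsin inhibitors 2 were higher and 1 lower. The serpin Serpina3g rose from 4.41 to 202 CPM (log2 5.52), and Serpinb6a fell from 334 to 21.2 CPM (log2 -3.98). Of 9 MiT/TFE factors and nutrient sensors none was higher and 2 lower, Rragd at -3.60 on 2 UMIs and Mitf at -1.13. Of 11 genes for the a3 subunit, assembly and regulation of the pump 1 was higher and 3 lower, with Ncoa7 at 2.39 (129 against 24.7 CPM) and the assembly factor Vma21 at -1.27. Tcirg1, the a3 subunit, was at 425 CPM in CTRL, 561 CPM in IRF3/7, 363 CPM in COX2i and 447 CPM in COX2i + 5-AZA.

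In COX2i relative to CTRL few of these genes passed 2-fold: 1 of 27 hydrolases was lower (Acp5, the osteoclast phosphatase, at -1.92; next Tpp1 at -0.62), none of 17 membrane proteins (Cd63 at -0.87 and Slc17a5 at -0.73) and none of 9 sorting genes (Gnptab at -0.63 and Gga2 at -0.35). Serpina3g was higher (1.82) and Cst7 lower (-1.08) among inhibitors, Rragd lower (-1.32; next Tfec at -0.86) among nutrient sensors, and Dmxl2 lower (-1.02; next Dmxl1 at -0.41) among pump regulators. The list medians nevertheless lay below the 0.01 of all genes. They were -0.34 for hydrolases, -0.33 for membrane proteins and -0.16 for sorting genes. For inhibitors, nutrient sensors and pump regulators they were -0.28, -0.47 and -0.20. In COX2i + 5-AZA relative to CTRL, 3 hydrolases were lower, among them Arsb at -2.54 and Acp5 at -2.37, and Slc11a1 was higher (1.33) and Slc17a5 lower (-1.19) among membrane proteins. Igf2r was lower (-1.55; next Gga2 at -0.59), inhibitors had 3 higher and 1 lower (Serpina3g at 5.34 and Stfa3 at 2.26, the latter on 18 and 3 UMIs), and neither pump regulators (Dmxl2 at -0.86 and Ncoa7 at 0.61) nor nutrient sensors (Rragd at -0.68 and Tfec at 0.63) passed 2-fold.

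Relative to COX2i, the double treatment had 2 hydrolases lower, among them Arsb at -2.03, and 1 membrane protein higher, Slc11a1 at 1.11, with Clcn7 next at 0.73. Igf2r was lower (-1.25; next Sort1 at -0.30). Serpina3g (3.52) and Serpinb1a (1.59) were higher, as was Tfec (1.49; next Rragd at 0.64), while no pump regulator passed 2-fold (Vma21 at -0.37 and Ncoa7 at 0.31).

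Of the 3 genes left out, Ctsk and Atp6v0d2 had lower levels in every other library than in CTRL. Over monocytes and macrophages Ctsk was at 1973 CPM in CTRL, 94.9 CPM in IRF3/7, 590 CPM in COX2i and 150 CPM in COX2i + 5-AZA, and Atp6v0d2, a d subunit of osteoclasts, at 75.5, 5.26, 24.4 and 8.72 CPM. Both were highest in Ctsk_Macro, where Ctsk stood at 27454 CPM in CTRL and 22053 CPM in COX2i. Ctsw was found in NK cells, at 847 to 1066 CPM.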

How the data were processed

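The deposited values were raw UMI counts per gene and cell from Chromium Flex, a probe assay on fixed cells (22 h of fixation). The authors made them with Cell Ranger 7.1.0 on mm10 and, by the study's methods, filtered cells on detected genes and mitochondrial and ribosomal reads and dropped ribosomal and mitochondrial genes. Their table of cells gave library and class, and no doublet caller was run here. Members, lists and tests were chosen with earlier results of these data known. Counts were summed over cells by library and class. Monocytes were Infl_Mono, Monocyte_1 and Monocyte_3, and macrophages the 6 classes TAM_C1q, TAM_Spp1, TAM_cycling, TAM_H2Ab1, Ctsk_Macro and Macro. Genes needed 20 UMIs in both sums together, a class 50 cells, and a count of 0 was set to 3 UMIs. Past 2-fold served as the rule of size, since 1 library per group allows no test. Intervals were exact Poisson, Clopper-Pearson or conditional (95%). Named were members past 2-fold, the 3 highest and 3 lowest of each comparison, and those with a class at 4 times their median class; of other lists, counts and the 2 largest changes. The scripts were tested on simulated data (Python 3.11.15, NumPy 2.4.6, SciPy 1.17.1, pandas 2.3.3). Cross-hybridisation of probes between near-identical genes was not checked. Depth per library was 26356819 to 78722763 UMIs. Alternatives were another scaling, no minimum of UMIs, a fixed class mix, cells with more than 2000 genes, all cells, and a limit of 1.5-fold. A few items of the genotype and of the other gene lists are not reported here.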

Additional observations from a re-analysis of the deposited data

How the results depend on the processing

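No paired analysis was possible because each group had 1 library. Dropping the minimum of UMIs left every median and count within the limits used for the comparison, and of 670 values of single members under the alternatives 62 changed sign, 0 of them of a member past 2-fold. With size factors the V-ATPase median turned to 0.037 in IRF3/7 against CTRL and the cathepsin median to 0.18 in COX2i + 5-AZA against COX2i. Other medians were -0.057 (cathepsins, IRF3/7 against CTRL), -0.0062 and -0.018 (V-ATPase genes and cathepsins, COX2i + 5-AZA against CTRL) and 0.21 (V-ATPase genes, COX2i + 5-AZA against COX2i), with 4 members higher and 3 lower in IRF3/7 (15.6% and 19.6% of all genes). Macrophages against monocytes then gave V-ATPase medians of 0.058 in CTRL, -0.16 in IRF3/7, -0.033 in COX2i and -0.083 in COX2i + 5-AZA, and cathepsin medians of -0.30, 0.13, -0.13 and -0.0074, so that 5 of these 8 turned. These shifts follow from the construction of the scaling.

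With the class mix of the second-named library the V-ATPase and cathepsin medians were -0.11 and -0.45 (IRF3/7 against CTRL, Infl_Mono alone), -0.12 and -0.17 (COX2i against CTRL), and 0.12 and 0.23 (COX2i + 5-AZA against COX2i). The last cathepsin median thereby turned from -0.0017. The V-ATPase median turned to 0.016 in COX2i + 5-AZA against CTRL, where 0 members were higher and 0 lower (3.89% and 7.95% of all genes). Over all cells the cathepsin medians were -0.26 (IRF3/7), -0.25 (COX2i) and -0.049 (COX2i + 5-AZA), all against CTRL, and the V-ATPase median of COX2i + 5-AZA against COX2i was 0.10. With more than 2000 genes per cell the cathepsin median was -0.33 in COX2i against CTRL and turned to 0.039 in COX2i + 5-AZA against COX2i, and 1 member (Atp6v0a2) was higher in IRF3/7 (8.67% of all genes). At 1.5-fold, 2 members were higher (13.6% of all genes) and 11 lower (48.4%) in IRF3/7, 2 lower (10.6%) in COX2i, 2 higher (9.09%) and 6 lower (20.8%) in COX2i + 5-AZA, all against CTRL, and 2 higher (9.99%) and 1 lower (19.3%) in COX2i + 5-AZA against COX2i.

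Leaving out a class was chosen after seeing the data. Without Ctsk_Macro the V-ATPase medians were -0.17 (COX2i against CTRL), -0.054 (COX2i + 5-AZA against CTRL) and 0.083 (COX2i + 5-AZA against COX2i), the cathepsin medians -0.23 (COX2i against CTRL) and -0.021 (COX2i + 5-AZA against COX2i), and 0 members were higher in COX2i + 5-AZA against CTRL (5.54% of all genes). Without Infl_Mono the medians in IRF3/7 against CTRL were -0.17 (V-ATPase genes) and -0.13 (cathepsins), and 3 members (Ctss, Ctsh and Atp6v0a2) were higher there (7.3% of all genes). The cathepsin median turned to 0.036 in COX2i + 5-AZA against COX2i. That of macrophages against monocytes turned to 0.31 in CTRL and was 0.24 in IRF3/7. Except where a cause is named, the cause was not tested. Depth limits the rarest genes, Ctse, Atp6v1g2 and Ctsf, most.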
